A study of Rattus norvegicus with 12 samples.

Results

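Transcripts of red blood cells were followed in the heart: the alpha globins Hba1 and Hba2, the beta globin Hbb, the haem enzyme Alas2, the red cell enzyme Bpgm and the red cell membrane protein Slc4a1. They were chosen by gene symbol, and 6 of the 17322 gene models of the deposited table carry these symbols. The set was chosen with earlier results of these data known. Counts of its members set beside shares of all tested models are therefore a description, not a test of the set. All 6 were high enough to be tested, among 12980 models with a mean value of at least 0.5. The hearts came from 15-week-old Sprague Dawley rats, an outbred stock, in 4 groups of 3 libraries named by dam and own diet. The mothers called GDM were given food high in fat and sucrose (HFS), starting before they were mated and ending with lactation, as the study's model of gestational diabetes. The mothers called Lean were given food low in fat (LF). At 3 weeks the offspring of each kind of dam were assigned at random to LF or HFS, giving the groups GDM-HFS, GDM-LF, Lean-HFS and Lean-LF. Dam diet and maternal metabolic state came together and cannot be told apart. The labels name no litter, so p-values measure only the spread between these 12 libraries.

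Haemoglobin is a tetramer of alpha-like and beta-like chains, each holding a haem, and it carries oxygen in red blood cells. Alas2 makes the first committed step of haem synthesis in erythroid cells, Bpgm makes the metabolite that lowers the oxygen affinity of haemoglobin, and Slc4a1 (band 3) exchanges chloride for bicarbonate across the red cell membrane. Mammalian red cells lose their nucleus, and the youngest of them in the circulation, reticulocytes, still hold globin RNA. Per the labels, blood was taken from the heart before it was rinsed and frozen, and the blood left in each heart was not measured. In whole tissue, fewer cells of a type and less RNA per cell cannot be told apart.

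Values are given as scaled reads: the deposited normalised read value of a gene model divided by 1 factor per library (0.890 to 1.15). Reads outside ribosomal RNA models numbered 9172734 to 14418970 a library, with means of 10455703 in Lean and 12527719 in GDM libraries. Lean-LF 3 held the highest value of 5 of the 6 transcripts, and GDM-HFS 2 the lowest of 5 of 6, so results are also given without GDM-HFS 2 where that moves them. The tissue label held: 10 of 10 cardiomyocyte markers were detected, led by Myh6, a cardiac myosin heavy chain, at a mean of 74563 scaled reads. The erythroid label was more mixed. Globin transcripts were abundant, but Gata1, the master erythroid transcription factor, was listed at 0 reads in 12 of 12 libraries, and Klf1, an activator of adult beta globin, had 0 to 8 reads. A count of 3 reads, taken as the limit that a listed 0 allows, is worth 0.497 to 0.828 scaled reads in these libraries.

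The alpha globin genes lie close together on chromosome 10, and their gene models in the Rnor_6.0 table overlap. The Hba1 model (NM_013096; minus strand, 15602794 to 15603649) lies inside the Hba2 model (NM_001007722; 15577166 to 15603649), which also contains another model, Hba-a1 (NM_001013853; 15577249 to 15577977). The Hba1 model held 67.4 to 72.8% as many reads as the Hba2 model in the same library. Which exons the Hba2 model counts could not be checked, so that the 2 models share reads is inferred from their overlap. Hba1 and Hba2 are therefore taken as 2 views of the same locus and not separate evidence. Counts and medians over the transcripts hold both views. The alpha globin copies are also near-identical in sequence, and how reads matching several copies were assigned is not stated by the labels. Hbb (NM_033234) lies on chromosome 1 (minus strand, 168971269 to 168972680), Alas2 (NM_013197) on X (minus strand, 23167576 to 23187356), Bpgm (NM_199382) on chromosome 4 (plus strand, 61912210 to 61940697) and Slc4a1 (NM_012651) on chromosome 10 (minus strand, 90296149 to 90312396). None of these 4 models overlaps another model of the table. All coordinates are whole gene spans with exons and introns.

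The sequence just upstream of each start site shows how alike the alpha copies are and how they differ from Hbb and from the small Hba-a1 model. The 250 bases before the start were taken from RefSeq's annotation of the later GRCr8 assembly, where the accessions of Hba1, Hba2 and Hba-a1 are named Hba-a1, Hba-a2 and Hba-a3. In the Rnor_6.0 table the minus-strand Hba1 and Hba2 models start at the same base, 15603649, while in GRCr8 their starts differ. The Hba2 window below therefore need not be the sequence before the Hba2 model whose reads are given here. They are printed in the direction of transcription, with GATAA (the core bound by GATA factors) and CACCC (the core bound by Kruppel-like factors) in capitals; 5 of the 6 transcripts had an entry.
Hba1 (GRCr8 chr10:15842581-15842830, minus strand): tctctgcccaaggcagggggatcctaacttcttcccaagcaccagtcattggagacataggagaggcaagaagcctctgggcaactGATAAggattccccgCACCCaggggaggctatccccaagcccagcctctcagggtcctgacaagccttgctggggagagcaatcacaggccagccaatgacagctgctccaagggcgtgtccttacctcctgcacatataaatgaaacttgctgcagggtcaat
Hba2 (GRCr8 chr10:15829139-15829388, minus strand): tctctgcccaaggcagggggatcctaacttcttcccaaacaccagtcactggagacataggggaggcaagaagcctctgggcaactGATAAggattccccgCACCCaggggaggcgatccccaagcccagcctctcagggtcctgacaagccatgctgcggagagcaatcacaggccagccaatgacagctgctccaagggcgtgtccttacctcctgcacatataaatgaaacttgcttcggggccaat
Hbb (GRCr8 chr1:167663722-167663971, minus strand): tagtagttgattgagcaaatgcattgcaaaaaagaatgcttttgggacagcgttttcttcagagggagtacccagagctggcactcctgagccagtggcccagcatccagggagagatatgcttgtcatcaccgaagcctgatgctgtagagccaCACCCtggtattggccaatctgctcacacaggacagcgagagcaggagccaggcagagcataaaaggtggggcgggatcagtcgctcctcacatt
Hba-a1 (GRCr8 chr10:15816944-15817193, minus strand): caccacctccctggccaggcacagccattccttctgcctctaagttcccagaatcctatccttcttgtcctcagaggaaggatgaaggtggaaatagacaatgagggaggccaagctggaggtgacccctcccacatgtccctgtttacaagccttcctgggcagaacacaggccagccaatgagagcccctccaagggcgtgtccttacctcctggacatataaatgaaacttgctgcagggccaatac

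The Hba1 and Hba2 windows were identical at 241 of 250 bases (96.4%). Both hold GATAA at 164 to 160 bases before the start, CACCC at 149 to 145, CCAAT at 71 to 67 and TATAA at 28 to 24. The Hbb window holds CACCC at 95 to 91 bases before the start and CCAAT at 81 to 77, with no GATAA or TATAA. The Hba-a1 window has CCAAT at 73 to 69 and TATAA at 30 to 26 and neither capital motif. Both strands were searched for all 4 motifs. A further CCAAT lay on the opposite strand at 203 to 199 in Hba1 and at 86 to 82 in Hbb. On the printed strand a further CCAAT lay at 5 to 1 in Hba2 and at 7 to 3 in Hba-a1. Of 33469 RefSeq windows of this length, 23.5% hold GATAA, 49.2% CACCC, 34.0% CCAAT and 24.0% TATAA, so these letters are common and their presence is a description, not a site of binding.

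Globins were among the abundant transcripts of these hearts, and the other red cell genes were far lower. Per kilobase of gene span, the mean level over 12 libraries was 2627 scaled reads for Hba1, 740 for Hbb and 120 for Hba2, whose span is mostly the gap between copies. It was 3.20 for Alas2, 3.05 for Slc4a1 and 2.65 for Bpgm. Myoglobin (Mb), the oxygen store of heart muscle, reached 2957 on the same scale. Since spans include introns, these levels order the genes only roughly.

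**Figure D1:**
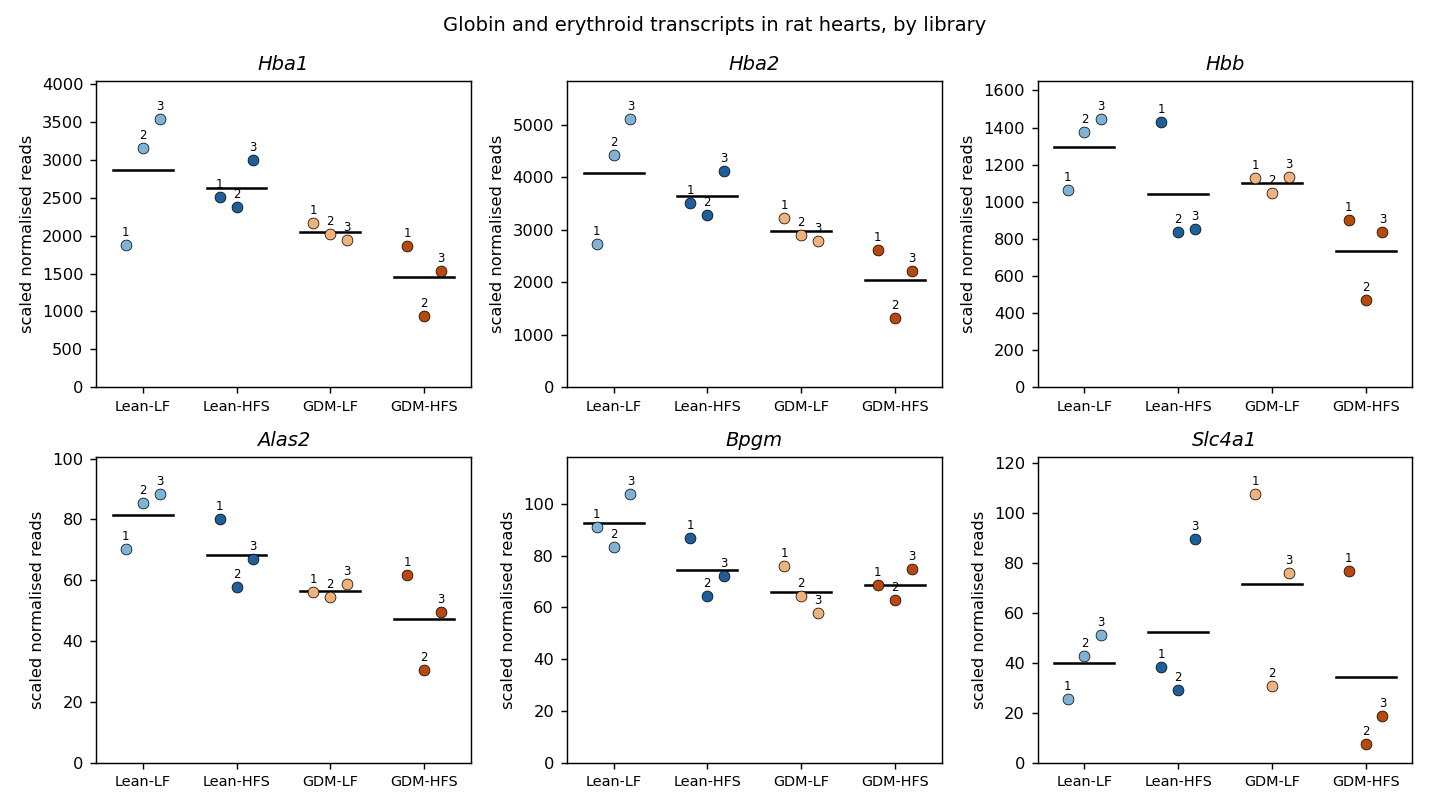
Scaled reads (y axis, linear, from 0) of the 6 transcripts in each of the 12 libraries (points, numbered by library) by group, with bars at group means. Lean-LF 3 is the highest point for every transcript but Slc4a1, and GDM-HFS 2 the lowest for every transcript but Bpgm.

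Alpha globin was highest in Lean-LF and lowest in GDM-HFS. Hba1 stood at 1883, 3155 and 3546 scaled reads in Lean-LF, 2515, 2384 and 3001 in Lean-HFS, 2170, 2019 and 1941 in GDM-LF, and 1868, 943 and 1533 in GDM-HFS. Group means were, in that order, 2861 ± 869, 2633 ± 325, 2044 ± 116 and 1448 ± 468 (SD, n = 3). Lean-LF 1 lay below all 3 GDM-LF libraries, so GDM and Lean overlapped on the LF diet, while on HFS all 3 GDM libraries lay below all 3 Lean libraries. Hba2 followed the same order, at 4093 ± 1231, 3637 ± 440, 2972 ± 220 and 2049 ± 662 scaled reads. Its 12 libraries ran from 1321 in GDM-HFS 2 to 5123 in Lean-LF 3, a 3.88-fold range.

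Beta globin was also highest in Lean-LF and lowest in GDM-HFS, but with the other groups in another order. Hbb stood at 1065, 1378 and 1448 scaled reads in Lean-LF, 1431, 834 and 853 in Lean-HFS, 1127, 1047 and 1131 in GDM-LF, and 902, 469 and 838 in GDM-HFS. The 3 GDM-LF libraries lay within 1047 to 1131, while Lean-HFS 1 stood apart from the other Lean-HFS libraries. Group means were 1297 ± 204, 1039 ± 339, 1102 ± 47.4 and 736 ± 234 in the same order, and the means of GDM-LF and Lean-HFS differed by less than the spread within Lean-HFS.

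Alas2 kept the order of the alpha globins. It stood at 70.4, 85.3 and 88.2 scaled reads in Lean-LF, 80.2, 57.8 and 67.0 in Lean-HFS, 56.1, 54.4 and 58.7 in GDM-LF, and 61.6, 30.6 and 49.6 in GDM-HFS. All 3 Lean-LF libraries lay above all 3 GDM-LF libraries, and the GDM-HFS libraries spread over both sides of GDM-LF. Group means were 81.3 ± 9.56, 68.3 ± 11.3, 56.4 ± 2.18 and 47.3 ± 15.6.

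Bpgm differed little between groups apart from Lean-LF. It stood at 91.1, 83.2 and 104 scaled reads in Lean-LF, 86.6, 64.5 and 72.1 in Lean-HFS, 76.2, 64.5 and 57.7 in GDM-LF, and 68.5, 63.0 and 75.0 in GDM-HFS. The last 3 groups overlapped, with means of 74.4 ± 11.2, 66.1 ± 9.33 and 68.8 ± 5.97 against 92.6 ± 10.3 in Lean-LF. Its 12 libraries spanned 1.80-fold, the narrowest range of the 6 transcripts.

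Slc4a1 was the most variable. It stood at 25.4, 42.9 and 51.4 scaled reads in Lean-LF, 38.3, 29.0 and 89.8 in Lean-HFS, 108 (GDM-LF 1), 30.9 and 76.2 in GDM-LF, and 76.8, 7.37 and 18.7 in GDM-HFS. Every pair of groups overlapped, and single libraries of GDM-LF, Lean-HFS and GDM-HFS held the top values. The 12 libraries spanned 14.6-fold, from 7.37 scaled reads (38 reads) in GDM-HFS 2 to 108 (445 reads) in GDM-LF 1. Group means were 39.9 ± 13.2, 52.4 ± 32.8, 71.5 ± 38.6 and 34.3 ± 37.2.

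Averaged over offspring diets, hearts from GDM dams held lower levels of 6 of 6 transcripts, but none passed the test. The limma test found 0 of 6 at an adjusted p under 0.05 and 5 of 6 at an unadjusted p under 0.05. These 5 include Hba1 and Hba2, whose models overlap. Of all tested models, 0.0616% were called and 5.48% were lower at an unadjusted p under 0.05. The median log2 difference was -0.46 for the 6 transcripts and 0.0015 for all tested models. On the log2 scale with 0.1 added to each value, Hba1 was at -0.67 ± 0.17 (standard error, limma adjusted p = 0.176) and Hba2 at -0.65 ± 0.17 (limma adjusted p = 0.195). Alas2 was at -0.55 ± 0.15 (limma adjusted p = 0.201), Hbb at -0.37 ± 0.17 (limma adjusted p = 0.435) and Bpgm at -0.30 ± 0.10 (limma adjusted p = 0.296). Slc4a1 was at -0.17 ± 0.49 (limma adjusted p = 0.925), although its arithmetic mean was higher in GDM libraries, 52.9 against 46.1. For Hba1 the means were 1746 ± 447 in 6 GDM libraries and 2747 ± 600 in 6 Lean libraries, and for Alas2 51.8 ± 11.1 and 74.8 ± 11.7. For 0 of 6 transcripts did all GDM libraries lie below all Lean libraries, against 0.401% of all tested models.

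The call on alpha globin and Alas2 depended on the tool. On the recovered reads, the quasi-likelihood test of edgeR called 0 of 6 transcripts (5 at an unadjusted p under 0.05, with 0.0694% of its models called), and DESeq2 called 3 lower in GDM: Hba1 (DESeq2 adjusted p = 0.0064), Hba2 (0.0107) and Alas2 (0.0405). Of these 3, Hba1 and Hba2 are views of the same locus. DESeq2 called 1.24% of its models in this comparison. Over 19 alternatives to the limma test other than DESeq2, the adjusted p of Hba1 ran from 0.0832 to 0.340, that of Hba2 from 0.113 to 0.351 and that of Alas2 from 0.118 to 0.352. Without GDM-HFS 2, 5 of 6 transcripts were lower, the median was -0.34, Hba1 was at -0.53 and Hbb at -0.22. Slc4a1 was at 0.22 without that library. Mean reads outside ribosomal RNA models were 10455703 in Lean and 12527719 in GDM libraries, and the part of depth in these differences was not tested.

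**Figure D2:**
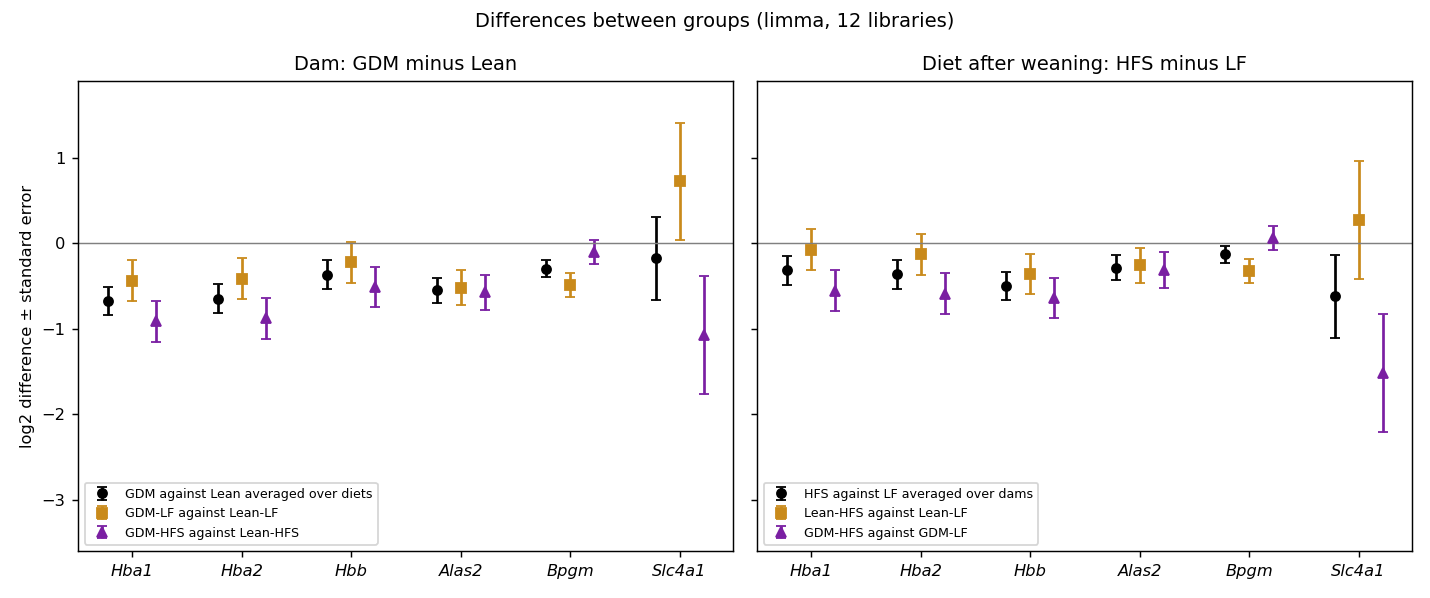
Log2 differences (points) with limma standard errors (bars) of the 6 transcripts for GDM minus Lean (left) and HFS minus LF (right), averaged over the other factor and within each level of it. The averaged points lie below 0 for 6 of 6 transcripts in both panels, at -0.67 for Hba1 (left) and -0.50 for Hbb (right), and the bars of Slc4a1 are the widest.

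On the LF diet alone, the transcripts whose groups did not overlap were Alas2 and Bpgm. GDM-LF lay wholly below Lean-LF for these 2 of 6 transcripts, against 5.42% of all tested models. Alas2 was at -0.52 ± 0.21 and Bpgm at -0.49 ± 0.14 (limma adjusted p = 0.981 and 0.875). The globins were at -0.44 (Hba1), -0.42 (Hba2) and -0.22 (Hbb), and Slc4a1 at 0.72 ± 0.69. Lean-LF 1 and Lean-LF 3 set the size of the globin differences. Without the first, Hba1, Hba2 and Hbb were at -0.71, -0.68 and -0.36, and without the other at -0.26, -0.23 and -0.14. Lean-LF 1 also had the fewest reads outside ribosomal RNA models of any library, 9172734 of 31258255, and the part of this was not tested. Slc4a1 was at 0.34 without GDM-LF 1 and at 1.24 without GDM-LF 2. Limma, edgeR and DESeq2 each called 0 of 6, and limma found 2 at an unadjusted p under 0.05 (4 without Lean-LF 1 or GDM-HFS 2, and 1 without Lean-LF 2, Lean-LF 3, GDM-LF 1 or GDM-LF 2). Of all tested models, limma called 0.0308% (and found 2.31% lower at an unadjusted p under 0.05), edgeR 0.0308% and DESeq2 0.139%. These shares are for fits with every library, and no share is given for fits that leave a library out.

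On the HFS diet the alpha globins were the transcripts that separated. GDM-HFS lay wholly below Lean-HFS for Hba1 and Hba2, 2 of 6 transcripts, against 7.19% of all tested models. These 2 models overlap and are the same locus, so they are not 2 separate models to set against that share. Hba1 was at -0.91 ± 0.24 (limma adjusted p = 0.309), a 1.88-fold lower level, and Hba2 at -0.88 ± 0.24 (limma adjusted p = 0.317). Alas2 was at -0.58, Hbb at -0.51, Bpgm at -0.11 and Slc4a1 at -1.07 ± 0.69. Limma and edgeR called 0 of 6 (4 at an unadjusted p under 0.05 by limma, against 4.96% of all tested models lower at that threshold), and DESeq2 called Hba1 (adjusted p = 0.0407, with 0.362% of its models called). Limma and edgeR each called 0.0154% of their models. Without GDM-HFS 2 the difference of Hba1 was -0.63, that of Hba2 -0.59, that of Alas2 -0.29, that of Hbb -0.21 and that of Slc4a1 -0.29, and 2 of 6 had an unadjusted p under 0.05 by limma. Without Lean-HFS 1 that count was also 2 of 6. For fits without a library no share of all tested models is given.

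The diet after weaning also went with lower values of 6 of 6 transcripts, by less for the alpha globins and more for Hbb. Averaged over dams, HFS minus LF was -0.31 for Hba1, -0.36 for Hba2, -0.50 for Hbb, -0.28 for Alas2, -0.13 for Bpgm and -0.62 for Slc4a1, with a median of -0.34 against 0.0083 for all tested models. Limma, edgeR and DESeq2 each called 0 of 6, against 0%, 0% and 0.297% of their models. By limma, Hbb alone had an unadjusted p under 0.05 (-0.50 ± 0.17, limma adjusted p = 0.513), against 3.91% of all tested models lower at that threshold. For 0 of 6 transcripts did all HFS libraries lie below all LF libraries, against 0.208% of all tested models. Mean Hbb was 888 ± 309 in HFS and 1199 ± 170 in LF libraries (n = 6 each). Without GDM-HFS 2 the median was -0.19, Hbb was at -0.35, Hba1 at -0.17, Hba2 at -0.22, Alas2 at -0.14 and Slc4a1 at -0.23. Without GDM-HFS 1, 5 of 6 had an unadjusted p under 0.05, without Lean-LF 1, 3, and without Lean-HFS 1, Lean-HFS 3 or GDM-HFS 3, 2. No share of all tested models is given for these fits, so the counts describe the members only.

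Within each kind of dam, the diet difference was larger for the globins in offspring of GDM dams, but the interaction was not called. GDM-HFS lay wholly below GDM-LF for 3 of 6 transcripts, Hba1 (-0.55), Hba2 (-0.59) and Hbb (-0.64 ± 0.23, limma adjusted p = 0.858), against 5.76% of all tested models. Of these 3, Hba1 and Hba2 are views of the same locus. Slc4a1 was at -1.52 ± 0.69, Alas2 at -0.31 and Bpgm at 0.064. Between Lean-HFS and Lean-LF, where all 6 transcripts overlapped (4.75% of all tested models were wholly lower), Hba1 was at -0.076, Hba2 at -0.13, Hbb at -0.35, Alas2 at -0.26, Bpgm at -0.32 and Slc4a1 at 0.28. Limma and edgeR called 0 of 6 in either comparison, and 0% of all tested models. DESeq2 called 0 of 6 in both, with 0.101% of its models called in GDM-HFS against GDM-LF. By limma, 4 of 6 in the first comparison and 1 of 6 in the second had an unadjusted p under 0.05, against 2.7% and 2.57% of all tested models lower at that threshold. The interaction of dam and diet was called for 0 of 6 by each of the 3 tools, with 0 of 6 at an unadjusted p under 0.05 by limma (3.01% of all tested models), and all 6 had a limma adjusted p of 0.999. Without GDM-HFS 2, the GDM-HFS minus GDM-LF difference was -0.27 for Hba1, -0.30 for Hba2, -0.34 for Hbb, -0.029 for Alas2 and -0.74 for Slc4a1, and 0 of 6 in place of 4 had an unadjusted p under 0.05. Leaving out GDM-LF 1, 2 or 3 left 1, 2 and 2 of 6. The shares of all tested models above are for fits with every library, not for these. The 4 comparisons within a diet or dam share groups with each other, and with the averaged ones, and are not independent.

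The small Hba-a1 model showed another pattern than the rest of the alpha locus. It held 66, 154 and 213 reads in Lean-LF, 158, 98 and 157 in Lean-HFS, 84, 1 and 76 in GDM-LF, and 183, 0 and 1 in GDM-HFS. In 3 libraries, GDM-LF 2, GDM-HFS 2 and GDM-HFS 3, it held at most 1 read, while the other 9 held 66 to 213. The same 3 libraries held 13543, 6810 and 10635 reads in the Hba2 model, so for GDM-HFS 2 the limit of 3 reads is 0.0441% of that model, against up to 1.16% measured elsewhere. The other 3 GDM libraries stood at 13.0 (GDM-LF 3), 20.3 and 30.3 scaled reads and the 6 Lean libraries at 18.2 to 49.1, so GDM-LF 3 also lay below every Lean library. GDM minus Lean was -3.91 ± 1.24 on the log2 scale (limma adjusted p = 0.274), a value that depends on the 0.1 added to each scaled value. The difference was -1.61 in edgeR (edgeR adjusted p = 0.439) and -1.63 in DESeq2 (DESeq2 adjusted p = 0.670).

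**Figure D3:**
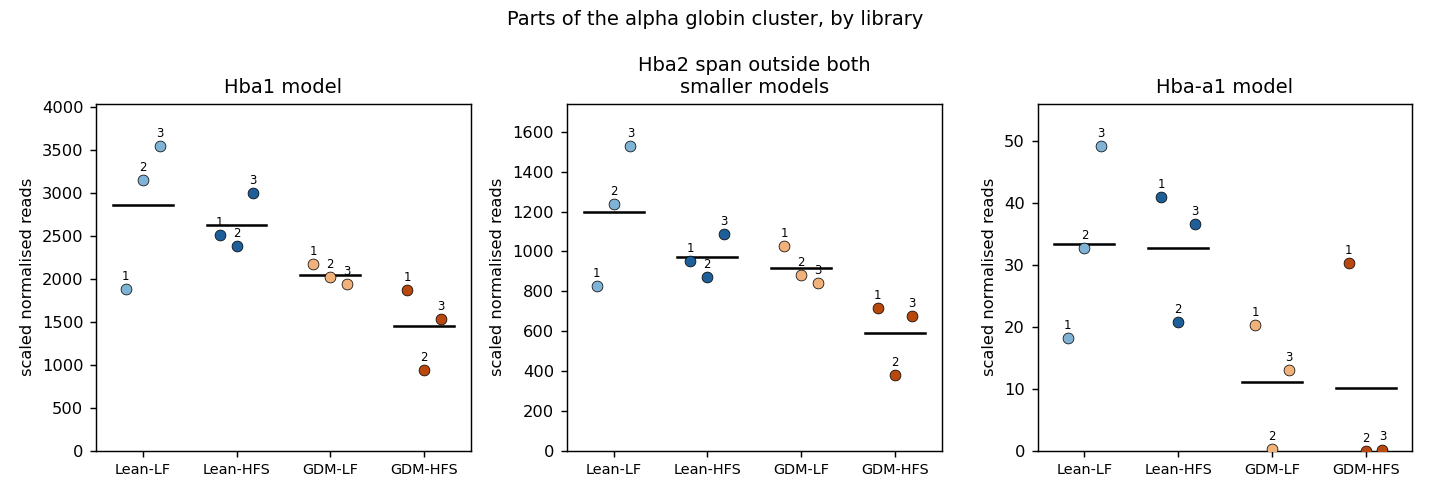
Scaled reads (y axis, linear, from 0) of the Hba1 model, of the Hba2 model less both smaller models, and of the Hba-a1 model, by library (points, numbered) with bars at group means. The first 2 panels share their order of libraries closely, while Hba-a1 is at or near 0 in GDM-LF 2, GDM-HFS 2 and GDM-HFS 3.

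Subtracting the reads of the Hba1 and Hba-a1 models from those of the Hba2 model left 26.4 to 31.9% of the Hba2 reads. The subtraction takes every read of the smaller models as also counted in Hba2, which could not be checked. Hba1 reads stayed within 67.4 to 72.8% of Hba2 reads in all 12 libraries. Another adult beta-like gene, LOC100134871 (Hbbl1 in later RefSeq annotation; chromosome 1, 168957460 to 168958836), had 31.0 to 43.1% as many reads as Hbb. Its groups had the same order as those of Hbb, with means of 484 ± 72.2 scaled reads in Lean-LF, 426 ± 57.8 in GDM-LF, 362 ± 84.9 in Lean-HFS and 247 ± 71.9 in GDM-HFS. HFS minus LF was -0.63 ± 0.15 (limma adjusted p = 0.389), and DESeq2 called it lower in HFS (adjusted p = 0.0304). The globins Hbz, Hbe1, Hbe2 and Hbg1, of embryonic type, were listed at 0 reads in 12 of 12 libraries.

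Within a library, the ratio of alpha to beta globin was lower on average in GDM hearts, by less than the test could call. The Hba2 to Hbb ratio was 2.56, 3.21 and 3.54 in Lean-LF, 2.45, 3.93 and 4.84 in Lean-HFS, 2.85, 2.77 and 2.47 in GDM-LF, and 2.90, 2.82 and 2.64 in GDM-HFS. All 6 GDM libraries lay within 2.47 to 2.90, inside the Lean range of 2.45 to 4.84, and the spread itself was not tested. Means were 2.74 ± 0.160 in GDM and 3.42 ± 0.893 in Lean libraries, a log2 difference of -0.28 (exact permutation p = 0.106, two-sided, 0.141 after adjustment over 4 ratio tests). Between HFS and LF the means were 3.26 ± 0.927 and 2.90 ± 0.404 (exact permutation p = 0.459). Over 924 splits of 6 against 6 the smallest p possible was 0.0022.

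The Alas2 to Hbb ratio was lowest in GDM-LF. It was 0.0661, 0.0619 and 0.0609 in Lean-LF, 0.0560, 0.0693 and 0.0786 in Lean-HFS, 0.0498, 0.0520 and 0.0520 in GDM-LF, and 0.0682, 0.0654 and 0.0593 in GDM-HFS. All 3 GDM-LF libraries lay below the other 9. HFS libraries averaged 0.0661 ± 0.0080 and LF libraries 0.0571 ± 0.0067, a log2 difference of 0.21 (exact permutation p = 0.0563, two-sided, 0.141 after adjustment over the 4 tests). GDM libraries averaged 0.0578 ± 0.0078 and Lean libraries 0.0655 ± 0.0079 (exact permutation p = 0.104, 0.141 after adjustment).

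**Figure D4:**
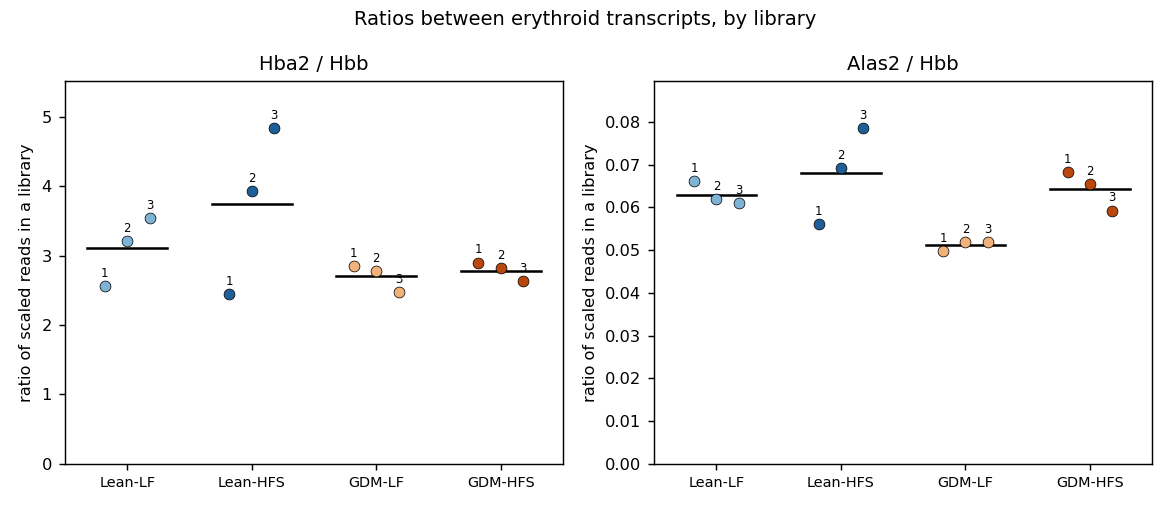
Ratios of scaled reads within a library (y axis, linear, from 0), Hba2 to Hbb (left) and Alas2 to Hbb (right), for 12 libraries (points, numbered) by group with bars at group means. The 6 GDM points on the left lie within 2.47 to 2.90, and the 3 GDM-LF points on the right are the lowest.

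The 6 transcripts varied together across the 12 libraries to different degrees, over 15 pairs computed on log2 values that share a library and its factor. Hba1 and Hba2, whose models overlap, had a Pearson r of 0.998. Alas2 followed both globins: r was 0.910 with Hba2 (Spearman rho 0.741, permutation p = 0.00019 and 0.0077, adjusted over 15 pairs 0.0012 and 0.0288) and 0.900 with Hbb (rho 0.755, permutation p = 0.00035 and 0.0064, adjusted 0.0013 and 0.0288). Without GDM-HFS 2 and Lean-LF 3, the libraries farthest from the median, those values of r were 0.708 and 0.683. Hba2 and Hbb had r of 0.817 (rho 0.622, permutation p = 0.0026 and 0.0348, adjusted 0.0077 and 0.0745), which was 0.425 without the 2 libraries, so that relation rests largely on them.

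Slc4a1 and Bpgm were less tied to the rest. For Slc4a1 and Hba2 r was 0.672 (rho 0.476, permutation p = 0.0187 and 0.122, adjusted 0.0351 and 0.155) and fell to 0.365 without GDM-HFS 2 and Lean-LF 3. Bpgm and Alas2 had r of 0.686 (rho 0.706, permutation p = 0.0121 and 0.0128, adjusted 0.0260 and 0.0384), and 0.621 without those libraries. Bpgm and Slc4a1 had r of 0.0897 (rho 0.0909, permutation p = 0.781 and 0.785). After subtracting group means, r was 0.929 for Hbb with Alas2, 0.817 for Hba2 with Alas2 and 0.787 for Hba2 with Slc4a1. It was 0.691 for Hba2 with Hbb, and for Bpgm it ran from 0.252 with Slc4a1 to 0.584 with Hbb. These values within groups were not tested and not repeated without GDM-HFS 2, so they are a description.

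**Figure D5:**
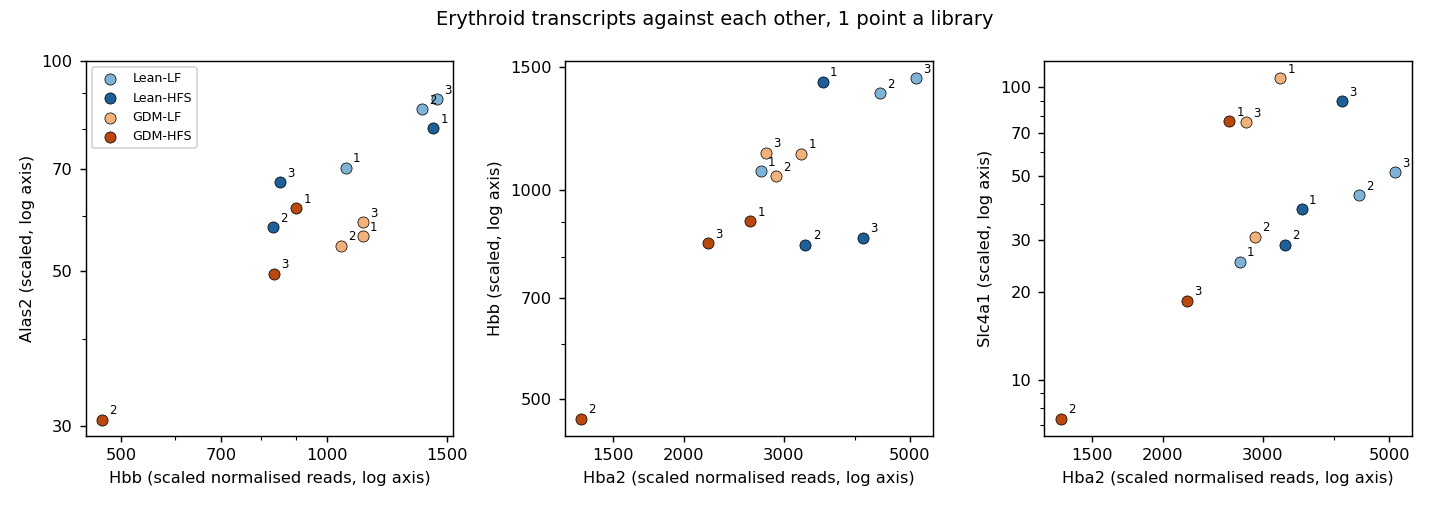
Pairs of transcripts by library (points, coloured by group and numbered), Alas2 against Hbb, Hbb against Hba2 and Slc4a1 against Hba2, in scaled reads on log axes. GDM-HFS 2 lies at the low end of all 3 panels, and r is 0.900, 0.817 and 0.672 from left to right.

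The transcripts most like an index of Hba2, Hbb, Alas2 and Slc4a1 were ranked by Pearson r over 12 libraries, among 10888 models with a mean of at least 5 scaled reads. LOC100134871, the other beta-like gene, came first at r = 0.892. It was followed by Zim1 (0.858), Zmiz2 (0.854), Nos2 (0.851), Lysmd1 (0.847), Lck (0.846), Klrc2 (0.845), Emc4 (0.843), Zfp511 (0.832) and Pla2g16 (0.818). Several of these are low transcripts, Zmiz2, Lck and Klrc2 at means of 6.17, 6.98 and 5.61 scaled reads, and Lysmd1 spanned only 687 to 751. The index was -1.42 in GDM-HFS 2 and ran from -0.52 to 0.55 in the other libraries. The ranking therefore leans on GDM-HFS 2 and was not repeated without it. Mb, the oxygen store of the muscle, ranked 4194 (r = 0.0863).

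Other red cell genes, taken as whole lists, had smaller median differences than the globins. Across the 16 lists of red cell, haem, hypoxia and cell type genes, 153 further models were tested, and limma and edgeR called 0 of them in GDM against Lean or HFS against LF (29 and 23 at an unadjusted p under 0.05 by limma, 19% and 15% of them, against 11.2% and 7.92% of all tested models). DESeq2 called 5 in GDM against Lean (Cygb, Padi4, Slc48a1, Tbx5 and Tyrobp) and 1 in HFS against LF (LOC100134871), 3.27% and 0.654% of them, against 1.24% and 0.297% of its models. Of the other haemoglobin genes 4 of 4 tested were lower in both, with medians of -0.35 and -0.71; Hbb-b1 was at -0.23 ± 0.20 and -0.48 ± 0.20 (limma adjusted p = 0.714 and 0.580). Of the other 8 enzymes of haem synthesis, which all tissues use, 4 were lower and 4 higher in GDM (median -0.010; 2 lower as deposited) and 7 of 8 were lower in HFS (median -0.12); Alas1, the housekeeping counterpart of Alas2, was at -0.035 ± 0.082 and -0.19 ± 0.082 (limma adjusted p = 0.909 and 0.616). Fech, which inserts iron into haem, was at -0.16 and -0.13.

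Lists of structural, enzymatic and regulatory red cell genes had medians nearer 0. In GDM against Lean, 10 of 15 red cell membrane and skeleton genes were lower (median -0.062), 7 of 9 red cell enzymes and chaperones (median -0.17), 11 of 16 reticulocyte and late erythroid genes (median -0.11) and 7 of 8 erythroid transcription factors (median -0.076). In HFS against LF the counts were 11 of 15, 6 of 9, 10 of 16 and 7 of 8, with medians of -0.074, -0.078, -0.041 and -0.081. These counts moved with the scaling. With values left as deposited, the median of all tested models was 0.11 in both comparisons, and the counts lower in GDM were 6 of 15, 6 of 9, 8 of 16 and 2 of 8. Only the enzyme list kept a lower majority there (median -0.062). In HFS against LF they were 8 of 15, 3 of 9, 6 of 16 and 4 of 8. The 6 members were lower in 6 of 6 in both comparisons under that scaling too, with Slc4a1 at -0.064 in GDM against Lean and Bpgm at -0.030 in HFS against LF. By limma, 3 in place of 5 then had an unadjusted p under 0.05 in GDM against Lean, and 1 in HFS against LF as before. In GDM-HFS against Lean-HFS and in GDM-HFS against GDM-LF that count was 2 in place of 4. Shares of all tested models at that threshold are not given for values as deposited. Levels in whole hearts do not show which cells hold a transcript, and the most abundant genes of these lists are not specific to red cells. Aqp1, Tmod1 and Sptb led the membrane list at means of 1199, 1155 and 860 scaled reads, and Cat, Gpx1 and Hk1 the enzyme list at 1293, 712 and 694. Isca1, Bcl2l1 and Tfrc led the late erythroid list and Zfpm1, Ldb1 and Bcl11a the transcription factors. Tfrc, the receptor that takes up iron-loaded transferrin, was at -0.15 in GDM against Lean and 0.25 in HFS against LF (limma adjusted p = 0.643 and 0.611). Genes closer to red cell precursors were scarce, with 0 to 23 reads for Ahsp, the alpha globin chaperone, and 6 to 32 for Hemgn. Epb42, a partner of band 3 in the membrane, had 4 to 19, and Rhag, an Rh complex protein, 0 to 6. At these few reads directions were mixed. Mean scaled reads in GDM and Lean libraries were 2.145 and 2.05 for Ahsp, 0.426 and 0.392 for Rhag and 1.03 and 0.703 for Klf1. They were 1.65 and 2.19 for Epb42, 3.72 and 5.47 for Hemgn and 0.331 and 1.36 for the transcription factor Gfi1b.

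Genes that handle released haem or respond to low oxygen had medians near 0. In GDM against Lean 6 of 11 haem and haemoglobin clearance genes were lower (median -0.039), and in HFS against LF 4 of 11 (median 0.065; 0 of 11 as deposited). Its most abundant genes, the iron store subunit Fth1, the haem scavenger receptor Lrp1 and the haem oxygenase Hmox2, were at -0.039, 0.0066 and 0.0061 in GDM against Lean. Hypoxia-regulated genes were lower in 11 of 13 in GDM (median -0.078; 5 of 13 as deposited) and 7 of 13 in HFS (median -0.024; 3 of 13 as deposited). Epas1, an oxygen-regulated transcription factor, was at -0.078 ± 0.090 and Vegfa, an angiogenic factor, at -0.073 ± 0.079 in GDM against Lean (limma adjusted p = 0.791 and 0.772). Ldha, a glycolytic enzyme, was at -0.13 ± 0.064 (limma adjusted p = 0.470). Of the tissue globins, Mb was at -0.056 ± 0.13 in GDM against Lean and -0.23 ± 0.13 in HFS against LF (limma adjusted p = 0.904 and 0.681). Cygb, a globin of fibroblasts, was at -0.38 ± 0.087 and 0.038 ± 0.087 (limma adjusted p = 0.166 and 0.916).

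Markers of other blood cells and of heart cells are given beside the globin values, and their part in them was not tested. Platelet markers were higher in 6 of 7 in GDM (median 0.14), with summed levels of 49.1 to 69.9 scaled reads in Lean-LF, 50.4 to 73.6 in Lean-HFS, 47.1 to 60.8 in GDM-LF and 53.2 to 113 in GDM-HFS. Neutrophil markers were higher in 7 of 9 in GDM (median 0.20), with sums of 13.4 to 31.9 over all 12 libraries, and Padi4, a histone-modifying enzyme of neutrophils, was at 1.18 ± 0.27 (limma adjusted p = 0.152). T and B lymphocyte markers were higher in 6 of 10 in GDM (median 0.11), with sums of 2550 to 2983 that are mostly 1 model, Cd2, at a mean of 2665. Limma called none of these markers in any comparison, and DESeq2 called Padi4 in GDM against Lean. Within a diet the directions were mixed: in GDM-LF against Lean-LF 4 of 7 platelet, 3 of 9 neutrophil and 7 of 10 lymphocyte markers were lower, and in GDM-HFS against Lean-HFS 1 of 7, 5 of 9 and 3 of 10.

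Macrophage and monocyte markers, by contrast, were lower in 13 of 13 in GDM against Lean (median -0.31), also as deposited and with TMM factors, at sums of 797 to 896 in Lean-LF, 788 to 1518 in Lean-HFS, 705 to 841 in GDM-LF and 660 to 779 in GDM-HFS, and in 7 of 13 in HFS against LF (3 of 13 as deposited). Lyz2 was at -0.46 ± 0.20 and Csf1r at -0.28 ± 0.13 in GDM against Lean (limma adjusted p = 0.415 and 0.436). Endothelial markers were lower in 9 of 11 in GDM (median -0.055; 3 of 11 as deposited). Cardiomyocyte markers were lower in 6 of 10 in GDM (median -0.019; 2 of 10 as deposited) and 10 of 10 in HFS (median -0.22; 9 of 10 as deposited). Atrial markers were higher in 9 of 9 in both comparisons (medians 0.96 and 1.13), at sums of 1074 to 2588 in Lean-LF, 3064 to 5779 in Lean-HFS, 760 to 10872 in GDM-LF and 4820 to 17889 in GDM-HFS.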

How the data were processed

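RNA of 12 whole hearts was depleted of ribosomal RNA, sequenced in pairs and, per the labels, aligned to Rnor_6.0 with STAR 2.5.1b. HOMER 4.9, edgeR, FastQC and Trim Galore appear in the submitters' processing notes with no role given. The deposited signal is a normalised read value per gene model: within 0.1 read, 100% of values are whole multiples of 1 step per library (0.184 to 0.262), not divided by length although the table is named for FPKM. Here values were divided by median-of-ratios factors, and log2(scaled reads + 0.1) was tested with limma 3.58.1 in R 4.3.3 (4 group means, variance trend, two-sided, Benjamini-Hochberg over 12980 models, threshold 0.05). On that scale the change of models with very few reads depends on the 0.1 added, as for Hba-a1 in GDM against Lean (-3.91 by limma, -1.61 in edgeR). edgeR 4.0.16 and DESeq2 1.42.0 ran on the recovered reads. Ratios were tested by exact permutation. The limma test was checked on simulated data. The 6 transcripts were always named; of each other list, the models called and the 3 most abundant, and the 10 models most like the index, were to be named. The members and lists were chosen with earlier results of these data known. RefSeq names matched 16410 models. Replicate numbers in the titles were not used to pair libraries.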

Additional observations from a re-analysis of the deposited data

How the results depend on the processing

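Log2 differences are given unless stated. The count of transcripts called by limma, 0 of 6, was the same in each comparison under every alternative but DESeq2, which called 3 in GDM against Lean and 1 in GDM-HFS against Lean-HFS; the cause was not tested. Over all models limma called 8 in GDM against Lean, 13 with values as deposited and 152 were called by DESeq2. Some small differences changed sign. Left as deposited, Hba1 in Lean-HFS against Lean-LF was at 0.026 and Bpgm in GDM-HFS against Lean-HFS at 0.00069, where the median of all tested models was 0.11 in both. Slc4a1 in GDM against Lean was at 0.12 in both edgeR and DESeq2, and the interaction of Alas2 at 0.0049 and 0.00099; the cause was not tested.

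Leaving out 1 library at a time, Hba1 in Lean-HFS against Lean-LF ran from -0.35 to 0.10, Hba2 from -0.40 to 0.059 and Slc4a1 from -0.20 to 0.62. Bpgm ran from -0.20 to 0.0091 in GDM-HFS against Lean-HFS and from -0.029 to 0.17 in GDM-HFS against GDM-LF. Slc4a1 in GDM against Lean ran from -0.62 without GDM-HFS 1 to 0.22 without GDM-HFS 2. The interaction ran from -0.46 to 0.013 for Hbb and from -0.27 to 0.23 for Alas2. For the log2 ratios, Hba2 to Hbb in GDM against Lean ran from -0.37 (leaving out Lean-HFS 1) to -0.17 (leaving out the third of that group), Alas2 to Hbb in GDM against Lean from -0.23 (without GDM-HFS 1) to -0.13, and Alas2 to Hbb in HFS against LF from 0.16 to 0.26. Unadjusted exact permutation p-values of these 3 ratio tests were as low as 0.026, 0.0433 and 0.0325 and as high as 0.21, 0.214 and 0.117.

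For the Alas2 to beta globin ratio, HFS against LF, shuffling diet only within dams left the difference at 0.21 with an exact permutation p = 0.04. With LOC100134871 as the beta globin, an alternative added after seeing the data, it was 0.35 (exact permutation p = 0.00649). LOC100134871 was itself lower in HFS (-0.63), which raises this ratio, so the value is not separate evidence. Both p-values are unadjusted. Apart from fits without a library, no other alternative of the ratio tests fell under 0.05.

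Over 18 pairs of same-numbered libraries r of their deviations ran from -0.098 to 0.116 (median 0.00049), and 1 pair exceeded 0.1, so the number was not taken as a pairing. As a hint from the data, the 3 same-numbered pairs of Lean-LF and Lean-HFS were at 0.061 to 0.116, and 8 of 12 libraries correlated best with a library of their own number. With the replicate number as a block (the replicate block fit), limma called 0 of 6 transcripts and 10 models in GDM against Lean, in place of 8. Reads in hand limit the smallest models most, such as Hba-a1, where 3 reads are worth 0.497 to 0.828 scaled reads.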
